A study of Mus musculus with 8 samples.

Results

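The choroid plexus genes described here are 10 protein-coding genes, Ttr, Kl, Folr1, Clic6, Sostdc1, Otx2, Aqp1, Cldn2, Mfrp and Enpp2. They were chosen by name from the 34620 gene names of the series, and the mean of each reached 1 normalized count, as did that of 19789 names in all, which were the genes tested. RNA of the hippocampus and of the prefrontal cortex (PFC) of C57Bl6 mice was sequenced in 8 libraries, 4 of each region, and each library came from a pool of 2 mice. By the labels no treatment was given, and the mice were male (from the study's methods) and 7 to 9 weeks old, although a paragraph of the methods gives an older range. The 8 mice of the series make 4 pools, so the regions appear to come from the same animals, but which libraries share a pool is not given in the sources used here.

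The choroid plexus is a fringe of vessels covered by a cuboidal epithelium that hangs into the brain's ventricles and secretes the cerebrospinal fluid. Its epithelium makes transthyretin in large amounts, carries folate into the fluid, and moves ions and water through transporters, channels and a leaky class of tight junction. The hippocampus lies along the lateral ventricle, whereas the PFC lies at the front of the cortex. In bulk tissue of this kind, fewer cells of a type and less RNA per cell cannot be told apart.

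Reads assigned to genes numbered between 3164964 and 16636500 in hippocampal libraries and between 4689377 and 10625194 in PFC libraries, so that 3 reads were worth between 1.30 normalized counts (hippocampus replicate 1) and 6.93 (hippocampus replicate 4). A normalized count is a read count divided by the size factor of its library. Neuronal genes went with the regional labels. All 8 hippocampal neuron genes were called higher in the hippocampus, against 2.55% of all genes tested (limma, adjusted p under 0.05). Of the 8 cortical neuron genes, 7 were called lower there, against 3.13%. These lists were chosen with earlier results of these data known, so the counts are no independent check of the labels. Hippocampus replicate 2 had the lowest mean Spearman correlation with its own region, 0.968, against 0.972 to 0.980 for the other hippocampal libraries, and results that rest on it are given with and without it.

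Of the 10 genes, 9 were higher in the hippocampus at an adjusted p under 0.05 and 1, Aqp1, was not past it (limma on log2 of the normalized count plus 1, adjusted over all genes tested). Over all genes tested, 2.55% were called higher in the hippocampus and 5.68% in either direction. The same 9 genes were past the threshold in edgeR (2.78% of all genes higher) and in DESeq2 (3.36%). In 9 genes, every hippocampal library lay above every PFC library, which was so for 5.54% of all genes tested, and in none did every hippocampal library lie below (6.27% of all genes). Without hippocampus replicate 2 the number called was again 9. The median log2 fold change of the 10 genes was 1.97, against 0.0038 over all genes tested. The 10 genes, and the lists set beside them below, were chosen with earlier results of these data known. These counts and medians are therefore no independent support for a difference between the regions. The p-values measure the spread between pools, whose relation to each other is not stated.

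**Figure D1:**
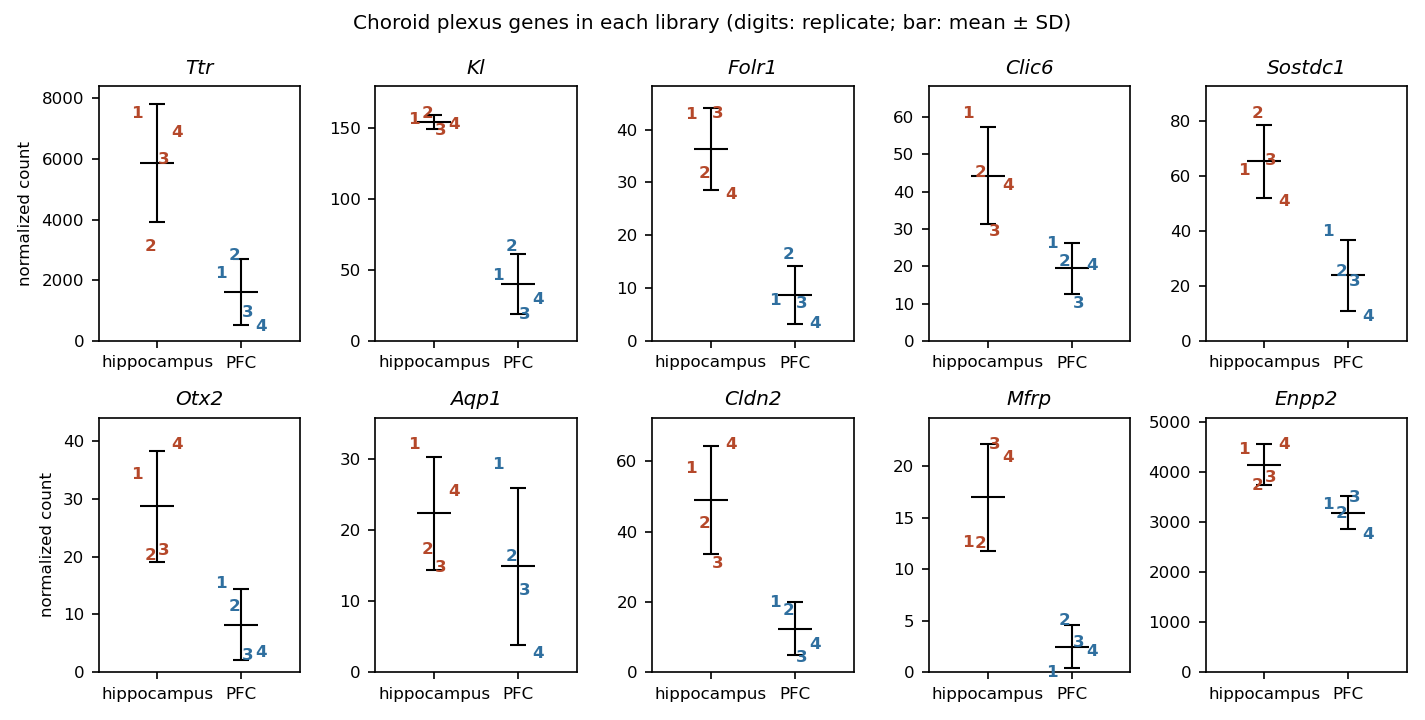
Normalized count (vertical axes, from 0) of each of the 10 choroid plexus genes in the 4 hippocampus libraries and the 4 PFC libraries. Digits are the replicate numbers and bars the mean and SD. The hippocampal values lie above the PFC values in every panel but that of Aqp1.

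Among the secreted proteins, Ttr encodes transthyretin, the carrier of thyroxine and of the retinol-binding protein in the cerebrospinal fluid. Ttr (chromosome 18, 20823751 to 20832825 on the plus strand, NCBIM37) had 7504, 3102, 5977 and 6868 normalized counts in hippocampus replicates 1 to 4, against 2230.1, 2824, 937 and 474 in PFC replicates 1 to 4. Hippocampus replicate 2 was the lowest of its region and came close to PFC replicate 2, but the regions did not overlap. Ttr averaged 5863 ± 1944 normalized counts in hippocampal libraries and 1616 ± 1096 in PFC libraries (SD, n = 4 each), a ratio of means of 3.63. On the log2 scale the difference was 2.10 ± 0.41 (SE, limma, adjusted p = 0.0048), and without hippocampus replicate 2 it was 2.38. Within the PFC alone its level differed 5.96-fold between the highest and the lowest library, more than the 2.42-fold within the hippocampus. With 654 to 17339 reads per library, the counting error of Ttr was at most 3.91%, well below this spread.

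Enpp2 encodes autotaxin, a secreted enzyme that makes lysophosphatidic acid and that mature oligodendrocytes make as well. Enpp2 (chromosome 15, 54670453 to 54751701 on the minus strand) had 4449.6, 3724, 3885 and 4544 normalized counts in the hippocampus, against 3347, 3173, 3493 and 2750.3 in the PFC. It was nearly even between libraries of a region, with coefficients of variation of 9.81% in hippocampal libraries and 10.1% in PFC libraries, and the regions did not overlap. The difference was the smallest of the 10 genes at 0.38 ± 0.10 on the log2 scale (limma, adjusted p = 0.042). This call was lost when any single library other than hippocampus replicate 2 was left out, with limma adjusted p of 0.141, 0.0730 and 0.138 without hippocampus replicate 1, 3 or 4 and of 0.0616, 0.102, 0.0678 and 0.160 without PFC replicate 1, 2, 3 or 4.

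Sostdc1 encodes a secreted inhibitor of BMP and Wnt signalling. Sostdc1 (chromosome 12, 37040756 to 37045039 on the plus strand) had 61.9, 82.7, 65.6 and 50.8 normalized counts in the hippocampus, against 40.0, 25.1, 21.5 and 8.74 in the PFC. Hippocampus replicate 2, the lowest for Ttr, was here the highest of its region. The difference was 1.57 ± 0.35 on the log2 scale (limma, adjusted p = 0.013).

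Kl encodes Klotho, a membrane protein that serves as co-receptor of FGF23 and whose shed form circulates. Kl (chromosome 5, 151755182 to 151796384 on the plus strand) had 156, 161, 149 and 152 normalized counts in the hippocampus, against 46.1, 66.5, 18.6 and 29.6 in the PFC. The hippocampal libraries were nearly level and lay far above all PFC libraries, which differed 3.57-fold among themselves. Kl averaged 155 ± 5.16 in hippocampal libraries and 40.2 ± 20.9 in PFC libraries, and its log2 difference of 2.06 ± 0.29 had the lowest adjusted p of the 10 genes in limma, 0.00038. Its coefficient of variation in the hippocampus was 3.34%, below the counting error of 5.26% to 12.3% of these libraries, whereas that of Ttr was 33.2%. By p, Kl stood at place 8 among genes higher in the hippocampus.

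The folate receptor gene Folr1, whose product takes folate across the choroid plexus, had 42.8, 31.8, 43.1 and 27.7 normalized counts in the hippocampus, against 7.68, 16.3, 7.16 and 3.36 in the PFC (chromosome 7, 109006845 to 109019302 on the minus strand). PFC replicate 2 was the highest of its region, as it was for Ttr and Kl. The difference was 2.10 ± 0.40 on the log2 scale (limma, adjusted p = 0.0040), from 5 to 13 reads in each PFC library.

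Cldn2 encodes claudin-2, a tight junction protein that forms pores for cations and water and that leaky epithelia use. Cldn2 (chromosome X, 136335367 to 136345925 on the plus strand) had 58.0, 42.3, 31.0 and 64.7 normalized counts in the hippocampus, against 19.98, 17.6, 4.30 and 8.07 in the PFC. PFC replicates 3 and 4 were below replicates 1 and 2, and no PFC library reached the lowest hippocampal one. The difference was 2.04 ± 0.41 on the log2 scale (limma, adjusted p = 0.0065).

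Clic6 belongs to the family of chloride intracellular channel proteins. Clic6 (chromosome 16, 92485981 to 92541488 on the plus strand) had 61.0, 45.2, 29.4 and 41.6 normalized counts in the hippocampus, against 26.1, 21.3, 10.0 and 20.2 in the PFC. The lowest hippocampal library, replicate 3, was close to the highest PFC library, replicate 1. The difference was 1.18 ± 0.33 on the log2 scale (limma, adjusted p = 0.043). The limma adjusted p of Clic6 was 0.172 without hippocampus replicate 1, 0.0797 without hippocampus replicate 4, and 0.0678, 0.145 and 0.104 without PFC replicate 2, 3 or 4.

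Aqp1 encodes aquaporin-1, the water channel of the apical membrane of the choroid plexus epithelium. Aqp1 (chromosome 6, 55286426 to 55298549 on the plus strand) had 32.0, 17.3, 14.7 and 25.4 normalized counts in the hippocampus, against 29.2, 16.3, 11.5 and 2.69 in the PFC. PFC replicates 1 and 2 lay within the hippocampal range, and PFC replicate 4, with 4 reads, was the only library far below the rest. The log2 difference was 0.85 ± 0.52 (limma, adjusted p = 0.46), and it was 0.26 without PFC replicate 4 and 1.27 without PFC replicate 1. Aqp1 passed the threshold under none of the 18 settings tried, with adjusted p of 0.196 to 0.877 over limma, edgeR and DESeq2. Its PFC libraries differed 10.9-fold, the widest range among the 9 genes with reads in all of them.

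Mfrp encodes a membrane protein with frizzled-like domains, known best from the retinal pigment epithelium. Mfrp (chromosome 9, 43909821 to 43917270 on the plus strand) had 12.5, 12.5, 22.1 and 20.8 normalized counts in the hippocampus, against 0, 5.02, 2.86 and 2.02 in the PFC. These stood for 9 to 42 reads per hippocampal library and for 0, 4, 2 and 3 reads in PFC replicates 1 to 4, and 3 reads in PFC replicate 1 would have been 4.61 normalized counts. The fitted difference of 2.59 ± 0.54 was the largest of the 10 genes (limma, adjusted p = 0.0081) and depends on the added count, with 1.57 at an added count of 5. Of the exon bases of Mfrp, 32.3% also lie in exons of C1qtnf5 on the same strand, which was listed at 0 in all libraries, and 16.9% lie opposite the transcript RP24-329C11.5. Reads were counted without strand, so strand does not tell reads from that opposite transcript apart from those of Mfrp. The opposite transcript lies within the span of C1qtnf5. Reads in the part shared with C1qtnf5 may have been left out of the count of either gene.

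The last of the 10, Otx2, encodes a homeodomain transcription factor that is needed for the choroid plexus to form. Otx2 (chromosome 14, 49277354 to 49287319 on the minus strand) had 34.2, 20.2, 21.0 and 39.3 normalized counts in the hippocampus, against 15.4, 11.3, 2.86 and 3.36 in the PFC. PFC replicates 3 and 4, with 2 and 5 reads, were well below replicates 1 and 2. The difference was 1.90 ± 0.47 on the log2 scale (limma, adjusted p = 0.024). Otx2 had a limma adjusted p of 0.0811, 0.0506 and 0.0752 without hippocampus replicate 1, 3 or 4, and of 0.0964 and 0.106 without PFC replicate 3 or 4. Leaving out single libraries thus cost 3 genes their call, Enpp2, Clic6 and Otx2, and left between 6 and 9 of the 10 called, whereas Ttr, Kl, Folr1, Sostdc1, Cldn2 and Mfrp were past the threshold under each setting that tested them.

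The promoter windows of the genes are shown because Otx2 is itself among the 10. RefSeq windows (GRCm38.p6, 250 bases before to 50 after a start) were at hand for 5 of the 10 genes, Kl, Otx2, Aqp1, Cldn2 and Mfrp. They were searched on both strands for TAATCC, the letters that OTX-type homeodomains bind (GGATTA on the other strand). It was found in Mfrp, 134 bases before the start, and in 1 of the 4 windows of Otx2, 211 bases before that start, and not in Kl, Aqp1 or Cldn2. Of all genes with a window, 8.14% held a match. The window of Mfrp is also that of C1qtnf5. Capitals mark the match in the bases before the start of Mfrp (chr9:44101520-44101769, plus strand) and in the stretch of the Otx2 window around it (chr14:48665303-48665332, minus strand). The bases before the start of Kl (chr5:150952357-150952606, plus strand), the gene with the lowest p, are given for comparison.
Mfrp: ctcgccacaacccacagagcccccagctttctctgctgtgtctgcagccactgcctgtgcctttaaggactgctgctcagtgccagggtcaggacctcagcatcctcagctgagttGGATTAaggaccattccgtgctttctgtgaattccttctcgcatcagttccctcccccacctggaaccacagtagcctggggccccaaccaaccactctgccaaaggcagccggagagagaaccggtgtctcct
Otx2: cgtgtgcccctcGGATTAtctcgttagttt
Kl: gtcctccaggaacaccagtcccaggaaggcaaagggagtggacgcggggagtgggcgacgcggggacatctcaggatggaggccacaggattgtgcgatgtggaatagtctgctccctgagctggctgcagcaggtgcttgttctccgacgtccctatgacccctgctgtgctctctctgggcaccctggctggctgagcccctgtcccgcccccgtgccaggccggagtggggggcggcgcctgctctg

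Levels of different genes were compared per kb of exon. In the hippocampus Ttr led with 4809 ± 1595 normalized counts per kb, before Enpp2 with 1195 ± 117 per kb. Sostdc1 (37.3 ± 7.56 per kb) and Kl (30.2 ± 1.01 per kb) came next, and these neighbours differed by less than 1 SD of Sostdc1. Folr1 (15.8 ± 3.40 per kb), Cldn2 (14.7 ± 4.58 per kb), Clic6 (11.3 ± 3.33 per kb), Aqp1 (8.51 ± 3.003 per kb) and Otx2 (8.44 ± 2.81 per kb) formed a run in which each pair of neighbours differed by less than the larger SD of the pair, and Mfrp was lowest at 3.93 ± 1.19 per kb. In the PFC, Ttr (1326 ± 899 per kb) and Enpp2 (919 ± 92.6 per kb) lay closer together and could not be ordered beyond their SD, since Enpp2 was above Ttr in PFC replicates 3 and 4. There Aqp1 (5.68 ± 4.21 per kb), Clic6 (4.96 ± 1.73 per kb), Folr1 (3.76 ± 2.38 per kb), Cldn2 (3.75 ± 2.25 per kb) and Otx2 (2.42 ± 1.81 per kb) lay within 1 SD of Aqp1 and could not be ordered. Kl (7.87 ± 4.08 per kb) lay within 1 SD of Aqp1 as well. Sostdc1 (13.6 ± 7.34 per kb) differed from Kl by less than its own SD, and Mfrp was lowest at 0.572 ± 0.481 per kb.

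**Figure D2:**
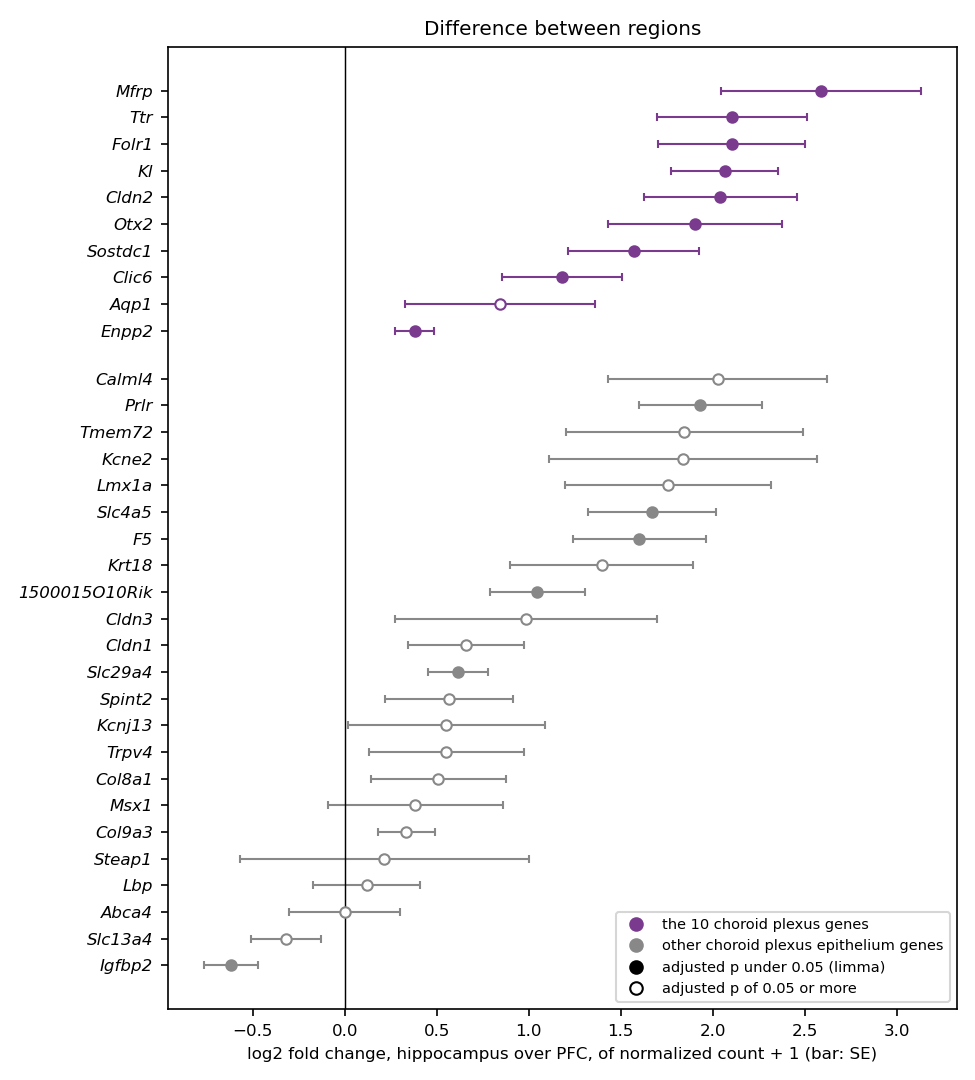
Log2 fold change of hippocampus over PFC (horizontal axis, on normalized count plus 1, bars SE) of the 10 choroid plexus genes and of the 23 other choroid plexus epithelium genes that were tested. Filled points had a limma adjusted p under 0.05, which were 9 of the 10 and 6 of the 23.

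A wider list of 25 genes of the choroid plexus epithelium was set beside them, of which 23 had enough counts to be tested. Among these, 5 were higher in the hippocampus and 1 was lower, against 2.55% and 3.13% of all genes tested, and the median log2 fold change was 0.62, against 0.0038 over all genes. Hippocampal libraries lay above all PFC libraries in 8 of the 23, against 5.54% of all genes tested, and below all of them in 1, Igfbp2, against 6.27%. Prlr, the prolactin receptor, had 108, 69.3, 102 and 157 normalized counts in the hippocampus, against 50.7, 32.6, 21.5 and 14.1 in the PFC, a log2 difference of 1.93 ± 0.33 (limma, adjusted p = 0.0021). Slc4a5, an apical sodium bicarbonate cotransporter, differed by 1.67 ± 0.35 (limma, adjusted p = 0.0079) and F5, coagulation factor V, by 1.60 ± 0.36 (limma, adjusted p = 0.013). The log2 difference of 1500015O10Rik was 1.04 ± 0.26 (limma, adjusted p = 0.023). The gene that was lower was Igfbp2, a binding protein of insulin-like growth factors, with 141, 141, 138 and 116 normalized counts in the hippocampus, against 192, 187, 196 and 252 in the PFC.

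Of the wider list, 17 genes were not past the threshold. Chosen after its values were seen, Kcne2, a potassium channel subunit of this epithelium, had 15.6, 1.92, 12.6 and 6.93 normalized counts in the hippocampus, against 0, 3.77, 5.73 and 0 in the PFC. Kcnj13, another potassium channel gene, chosen in the same way, had 32.0, 5.77, 26.3 and 71.6 in the hippocampus, against 12.3, 25.1, 12.9 and 18.8 in the PFC. Kcne2 rested on 2 to 36 reads per hippocampal library and on 0 to 4 per PFC library. In both genes hippocampus replicate 2 was the lowest of its region, with 2 and 6 reads, and the regions overlapped. That library was the lowest for Ttr too, but also for 35.2% of all genes tested. The count past the threshold depended on single libraries, with 11 genes without hippocampus replicate 2, 1 without hippocampus replicate 3, and 2 without PFC replicate 3 or without PFC replicate 4. Over all genes tested the number moved too, from 1124 to 2224 without hippocampus replicate 2 and to 575 without PFC replicate 3.

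Of 20 tested genes whose products bind, carry or answer the products of the 10 genes, 2 were higher in the hippocampus and 0 were lower in limma, edgeR and DESeq2 (4 higher and 4 lower at an unadjusted p under 0.05 in limma), with a median log2 fold change of -0.064. Over all genes tested, 2.55% were called higher and 3.13% lower, and 8.19% were higher and 8.74% lower at an unadjusted p under 0.05. Fgfr1, the receptor that Klotho joins to bind FGF23, averaged 556 ± 46.4 normalized counts in hippocampal libraries and 310.2 ± 32.6 in PFC libraries (0.84 ± 0.12 on the log2 scale, limma, adjusted p = 0.00039). Lpar1, a receptor for the lysophosphatidic acid that autotaxin makes, averaged 573 ± 22.1 in hippocampal libraries and 358 ± 49.8 in PFC libraries (0.69 ± 0.12, limma, adjusted p = 0.0023). Among 12 genes for ion and water transport into the cerebrospinal fluid, which other brain cells use too, 2 were higher in the hippocampus. Car12, a carbonic anhydrase, differed by 1.18 ± 0.24 and Slc12a2, the sodium, potassium and chloride cotransporter NKCC1, by 0.59 ± 0.13 on the log2 scale (limma, adjusted p = 0.0069 and 0.012).

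The ratio to Ttr asks which of the other 9 genes kept the same proportion to it in each library. Kl stood at 2.08%, 5.18%, 2.49% and 2.22% of the normalized count of Ttr in hippocampus replicates 1 to 4, against 2.07%, 2.36%, 1.99% and 6.24% in PFC replicates 1 to 4. Over the 8 libraries the ratio of Kl ranged 3.14-fold, so its proportion to Ttr was not constant. It was highest in hippocampus replicate 2 and PFC replicate 4, where Ttr was the lowest of its region. With these libraries set aside, after their values were seen, the ratio of Kl was between 1.99% and 2.49% in both regions. Its mean log2 ratio differed by -0.039 ± 0.50 (SE) between the regions (exact permutation test, two-sided, p = 0.89).

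The ratio of Folr1 to Ttr was 0.571%, 1.02%, 0.720% and 0.404% in the hippocampus, against 0.345%, 0.578%, 0.765% and 0.709% in the PFC, and it differed by -0.0014 ± 0.40 on the log2 scale (exact permutation test, p = 1.0). Cldn2 averaged 0.899% of Ttr in hippocampal libraries and 0.920% in PFC libraries, and Otx2 averaged 0.508% in the hippocampus and 0.526% in PFC libraries. Their log2 ratios differed by -0.062 ± 0.49 and -0.20 ± 0.34 (exact permutation tests, p = 0.94 and 0.60). For these genes the difference between the regions was not larger than the spread between libraries, and SEs of this size leave room for a difference in ratio.

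Aqp1 had the only ratio of the 9 with an unadjusted p under 0.05, although the ratio of Enpp2 differed more. Aqp1 stood at 0.427%, 0.558%, 0.246% and 0.370% of Ttr in the hippocampus, against 1.31%, 0.578%, 1.22% and 0.567% in the PFC. The regions did not overlap, although hippocampus replicate 2 and PFC replicate 4 differed little, and the log2 ratio differed by -1.26 ± 0.37 (exact permutation test, two-sided, p = 0.0286, the smallest that 4 against 4 can give, and not adjusted over the 9 ratios). Enpp2 had 59.3%, 120%, 65.0% and 66.2% of Ttr in the hippocampus, against 150.1%, 112%, 373% and 580.1% in the PFC, a log2 difference of -1.72 ± 0.60 (exact permutation test, p = 0.057). Only PFC replicate 2 fell within the hippocampal range of the Enpp2 ratio. Clic6 (-0.92 ± 0.64), Sostdc1 (-0.53 ± 0.52) and Mfrp (0.49 ± 0.88) gave exact permutation p of 0.20, 0.40 and 0.74. Without hippocampus replicate 2 the log2 ratios of Kl, Aqp1 and Enpp2 differed by -0.34, -1.44 and -1.95.

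**Figure D3:**
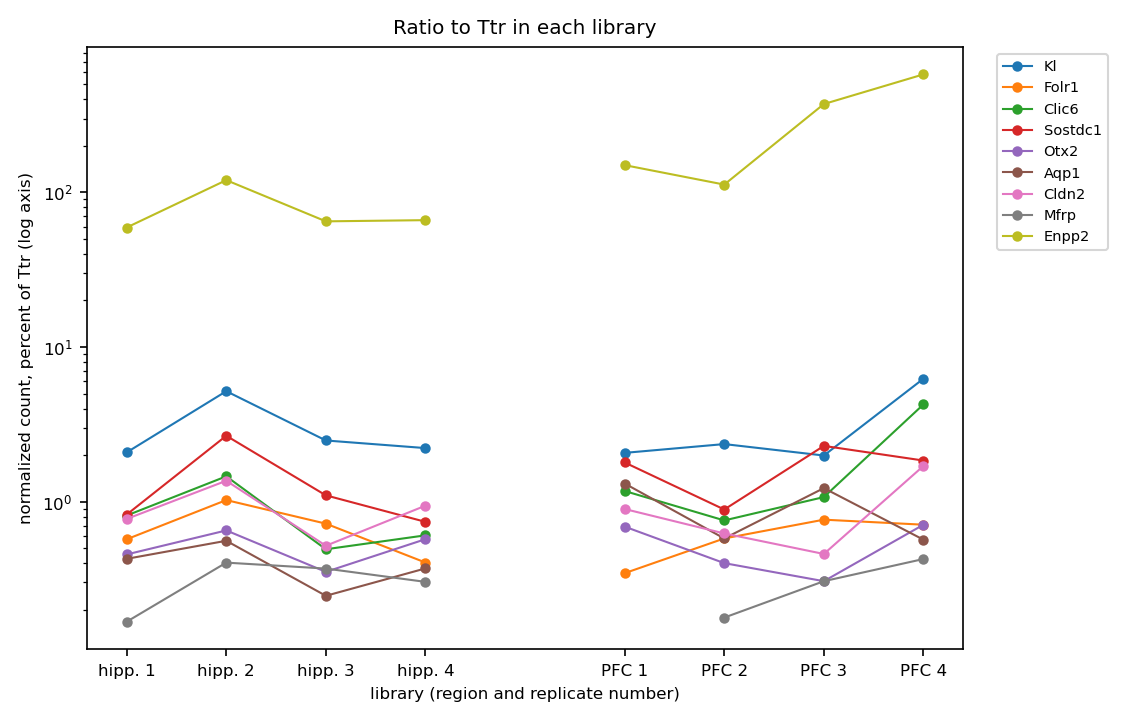
Normalized count of 9 genes as a percent of that of Ttr (vertical axis, log scale) in hippocampus replicates 1 to 4 and PFC replicates 1 to 4, each line a gene. Mfrp had no read in PFC replicate 1, so that point is missing. Kl lies between 1.99% and 2.49% in 6 of the libraries and above 5% in hippocampus replicate 2 and PFC replicate 4.

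Within regions, each gene was also fitted on the log2 level of Ttr with the region as a term, where a slope of 1 stands for a constant ratio. The slope was above 0 in 8 of the 9 genes. No gene of the 19788 fitted passed an adjusted p of 0.05 in limma (0.0%), and 1054 (5.33%) had an unadjusted p under 0.05. Of the 9 genes, 6 had a positive slope with an unadjusted p under 0.05, against 2.88% of all genes, and their median slope was 0.43. Such slopes were not particular to choroid plexus genes. Of the 8 hippocampal neuron genes 7 had one, with a median slope of 0.53, and of the 12 mature oligodendrocyte genes 7 had one, with a median slope of 0.18. The slopes of Aqp1 (0.88 ± 0.24), Otx2 (0.74 ± 0.24), Cldn2 (0.54 ± 0.23), Folr1 (0.53 ± 0.22), Sostdc1 (0.43 ± 0.20) and Kl (0.39 ± 0.16) were these 6, and their adjusted p in limma were 0.698 to 0.918. Clic6 (0.17 ± 0.20), Enpp2 (0.096 ± 0.059) and Mfrp (-0.00047 ± 0.35) were the other 3. Without PFC replicate 2 the 6 genes became 2, against 1.80% of all genes. Without hippocampus replicate 1 they became 3, against 2.21%. They also became 3 without PFC replicate 4, against 4.997%, and became 4 without PFC replicate 1, against 3.15%. With the replicate number as a block they became 3, against 4.07% of all genes.

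The order of the PFC libraries was shared by most of the genes. The highest PFC library was replicate 1 in 5 genes and replicate 2 in 4 genes, and the lowest was replicate 4 in 5 genes and replicate 3 in 4 genes. Over all genes tested, replicate 1 was the highest in 28.1% and replicate 2 in 22.9%, and replicate 4 was the lowest in 23.7% and replicate 3 in 22.6%. Summed over the 10 genes without Ttr and Enpp2, the normalized counts were 184, 179.5, 78.8 and 78.0 in PFC replicates 1 to 4. The corresponding sums were 459, 413, 376 and 423 in hippocampus replicates 1 to 4. In the hippocampus, replicates 2 and 3 were each the lowest in 4 genes, against 35.2% and 17.8% of all genes, and replicates 1 and 4 were each the highest in 3.

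Genes of other cells moved with the 10 genes across the PFC libraries. The 8 hippocampal neuron genes summed to between 16239 and 20016 normalized counts in the hippocampus, and to 10128, 9455, 6588 and 4739 in PFC replicates 1 to 4, and 7 of the 8 were lowest in PFC replicate 4. Of the 12 mature oligodendrocyte genes, 11 were called higher in the hippocampus, against 2.55% of all genes tested (limma, adjusted p under 0.05). The 12 summed to between 113529 and 122040.0 there, and to 80905, 78598, 58080.2 and 54988 in PFC replicates 1 to 4. The 8 cortical neuron genes ran the other way, with sums between 2312 and 2498 in the hippocampus and of 3891, 3825, 4699 and 4777 in PFC replicates 1 to 4. No gene of these 3 lists was at 0 in any library. Their part in the differences of the choroid plexus genes was not tested.

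Cells that border the choroid plexus were looked at in the same way. Of 10 tested genes of ependymal cells, the ciliated lining of the ventricles, 5 were higher in the hippocampus and 0 were lower in limma, edgeR and DESeq2 (8 and 0 at an unadjusted p under 0.05 in limma), against 2.55% of all genes called higher and 8.19% higher at an unadjusted p under 0.05, with a median log2 fold change of 1.01. They summed to between 252 and 299.9 normalized counts in hippocampal libraries, and to 174, 147, 122 and 117 in PFC replicates 1 to 4. Tmem212 and Spag17 were at 0 in PFC replicate 3. Tmem212 differed by 2.58 ± 0.56, Spag17 by 2.18 ± 0.57, Ccdc153 by 1.83 ± 0.46 and Ak7 by 1.60 ± 0.41 on the log2 scale (limma, adjusted p = 0.010, 0.031, 0.026 and 0.029). Of 13 genes of meningeal fibroblasts, 1 was higher (Dcn, 1.01 ± 0.16) and 2 were lower (Slc22a6, -1.22 ± 0.31, and Fmod, -0.94 ± 0.21), against 3.13% of all genes called lower. The sums of the 13 genes overlapped, at 1566 to 1775 in hippocampal libraries and 1611 to 1833 in PFC libraries. Of 12 vessel genes, 1 was higher (Acta2, 0.83 ± 0.23), with sums of 1331 to 1457 in hippocampal libraries and 1351 to 1472 in PFC libraries. Of the 6 blood genes, 0 were past the threshold in limma, edgeR and DESeq2, with 1 at an unadjusted p under 0.05 in limma, and their sum was highest in hippocampus replicate 2, at 2108 against 1025 to 1308 in the other hippocampal libraries. The part of these cells in the differences of the choroid plexus genes was not tested.

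The genes most like Ttr were those whose log2 ratio to it had the smallest SD over the 8 libraries, among the 12956 genes whose mean reached 20 normalized counts, where the median SD was 1.44. They were Slc9a4 (0.37), Dsp (0.40), Spink8 (0.42), Prlr (0.45), Tspan18 (0.46), Shisa6 (0.46), Gm2115 (0.48), Lct (0.49), 2310002F09Rik (0.49) and Cd109 (0.49). Prlr is in the wider choroid plexus list, and Dsp and Spink8 are in the list of hippocampal neurons. Dsp, which encodes desmoplakin and marks dentate granule cells, had 619.7, 608, 794 and 639.9 normalized counts in the hippocampus, against 290.5, 290.0, 129 and 47.1 in the PFC. Of the 10 genes themselves, Folr1 stood at place 14 with an SD of 0.52, Cldn2 at place 24, Kl at place 25 with 0.65, Sostdc1 at place 44, Clic6 at place 172 and Enpp2 at place 972. Otx2, Aqp1 and Mfrp had means under 20 and were not placed. The libraries share their depth and dissection across all genes, and the likeness is a description.

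**Figure D4:**
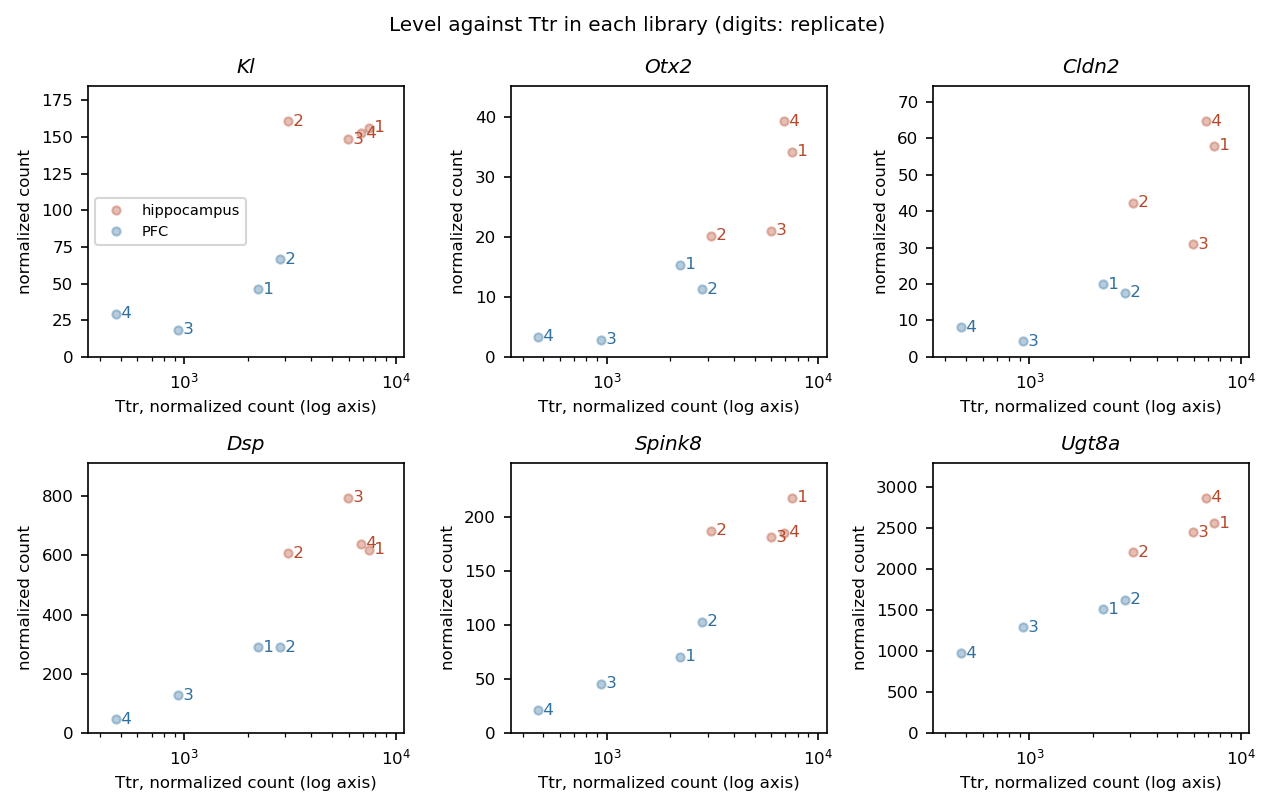
Normalized count (vertical axes, from 0) of Kl, Otx2, Cldn2, the hippocampal neuron genes Dsp and Spink8 and the oligodendrocyte gene Ugt8a against that of Ttr (horizontal axes, log scale) in the 4 hippocampus and 4 PFC libraries, marked by replicate number. PFC replicates 3 and 4 lie below replicates 1 and 2 in every panel, and in hippocampus replicate 2, where Ttr had 3102 normalized counts, Kl and Dsp were near their regional level.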

How the data were processed

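The values used are signals per gene, read counts that the authors divided by size factors before they were deposited. Per the paper's methods and the submitters' processing notes, reads were aligned with TopHat2 2.0.9 to NCBIM37, counted with HTSeq 0.6.0 without strand and scaled with DESeq. The release of the annotation is not given in the sources used here. FPKM values made with Cufflinks 2.1.1 and the authors' comparisons were not used here. Whole reads were recovered as multiples of each library's smallest value (100% within 1e-06).

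Genes whose mean reached 1 normalized count were compared with limma 3.58.1 (trended variance, two-sided, Benjamini-Hochberg over 19789 genes, threshold 0.05) on log2 of the count plus 1. As count tests, edgeR 4.0.16 (quasi-likelihood) and DESeq2 1.42.0 were run on the recovered reads. The design was kept unpaired, because the replicate numbers mark no shared animals in the labels. Other settings were added counts of 0.5 and 5, no filter, a mean of at least 10, TMM and quantile scaling, a replicate block and each library left out. Ratios to Ttr were compared with exact permutation tests over 70 splits, and slopes on Ttr with limma. The methods were tested on simulated data. Positions and exon lengths came from GENCODE M1 and promoters from RefSeq. R was 4.3.3 and Python 3.11.15.

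The 10 genes and the 10 lists beside them were chosen with earlier results of these data known. Named are the 10 genes, up to 4 genes past the threshold per list with the largest fold change, and the 10 genes most like Ttr; 1 gene that this rule names is not reported here. Of the fixed lists, Mia and Dnah11 of the ependymal list were not found under these names. C1qtnf5 is in the list of partners. Depth was 3164964 to 16636500 reads per library, and floors of 3 reads and counting errors cover counting only.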

Additional observations from a re-analysis of the deposited data

Results flagged for a closer look

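In 4 of 38 groups of 4 libraries, 1 library lay far from the other 3 (by Dixon's test of its gap to the nearest, which chance passes in about 1 of 20 groups). Kl stood at 5.18% of Ttr in hippocampus replicate 2 and at 6.24% of Ttr in PFC replicate 4. Clic6 stood at 4.26% of Ttr in PFC replicate 4. Enpp2 stood at 120.04% of Ttr in hippocampus replicate 2. In each of these libraries Ttr, the divisor, was the lowest of its region, at 3102 normalized counts in hippocampus replicate 2 and 474 in PFC replicate 4, so that these 4 ratios are not separate observations. No level of the 10 genes themselves lay that far from its group.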

How the results depend on the processing

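Of the choroid plexus genes, 9 were past the threshold in limma, between 6 and 9 when a library was left out, 8 with a mean of at least 10 (Mfrp was then not tested), 6 with no filter and 8 with the replicate block, which cost Enpp2 its call (limma adjusted p = 0.13). With no filter Clic6, Otx2 and Enpp2 were lost (limma adjusted p = 0.090, 0.063 and 0.084). Over all genes, 1124 were past the threshold, 729 with the replicate block and between 575 (without PFC replicate 3) and 2224 (without hippocampus replicate 2) when a library was left out. Deviations from the region means were hardly correlated between libraries of the same replicate number (-0.13, -0.09, 0.03 and 0.02). Other pairs of libraries were not compared, so this cannot show whether the numbers mark shared pools. The block changed no other call of the 10 genes. Of the other choroid plexus epithelium genes, 6 were past the threshold, 4 with the replicate block and between 1 and 11 with a library left out. Genes whose slope on Ttr passed the threshold numbered 0, and between 0 and 71 with a library left out, 2 without hippocampus replicate 1 and 71 without hippocampus replicate 2, none of them among the 10. The cause of these changes was not tested.

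The log2 ratio of Folr1 to Ttr, near 0, was 0.077 at an added count of 0.5, and that of Mfrp was -0.53 at an added count of 5. The slope of Sostdc1 lay between -0.0095 (without PFC replicate 4) and 0.62 with a library left out. The slope of Mfrp, near 0, was 0.069 at an added count of 5, 0.38 with the replicate block, and between -0.45 (without PFC replicate 2) and 0.37 (without PFC replicate 1) with a library left out. The ratio of Aqp1 was the only one with an exact permutation p under 0.05 at added counts of 0.5 and 5 as well. With a library left out, 3 against 4 cannot go below 0.0571, so the count of ratios past 0.05 was not recomputed there. Depth limits Mfrp, Otx2, Folr1, Cldn2 and Aqp1 most in the PFC, where they rested on 0 to 19 reads per library.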
